A study of Mus musculus with 10 samples.

Results

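In mouse embryonic stem cells, 1548 autosomal H3K4me3 domains were 10 kb or wider after deletion of BAF250a (KO) and consisted only of islands under 10 kb in cells with the protein (WT). They are called widened domains here. An island is an interval that the authors' peak caller listed as enriched. Each widened domain is 1 island of the KO H3K4me3 list that overlaps, by 1 bp or more, at least 1 island of the WT H3K4me3 list. All WT islands below it are under 10 kb wide, and no H3K27me3 island of either genotype lies over it. The KO list holds 40978 islands in all. The domains were thus chosen by the measured widths of the KO and WT islands and by the absence of H3K27me3, so their KO and WT H3K4me3 values describe the selection and test nothing.

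The KO cells carry the label BAF250a Knockout and received 1 µM 4-OH tamoxifen for 36 hours, beginning 4 hours after passage. For the WT cells ethanol took the place of the drug over the same hours, and the effects of the deletion and of tamoxifen cannot be told apart. The labels do not name what drives the deletion. Both were of strain 129/C57BL/6 and grew on embryonic fibroblast feeders with LIF, and the labels do not say whether feeder cells were removed. There was 1 H3K4me3 and 1 H3K27me3 ChIP library per genotype with no replicate, so no difference below could be set against a spread between libraries and no p-value between genotypes was computed. Intervals given below for shares are exact binomial 95% intervals, which treat islands as independent. Intervals of a ratio of read counts cover counting error only. Reads are not known to be independent molecules.

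H3K4me3, trimethylation of lysine 4 on histone H3, is laid down at promoters by the MLL and SET1 methyltransferase complexes, which are drawn to unmethylated CpG islands and to active transcription. Demethylases of the KDM5 family remove it. Most promoters carry a narrow block of the mark over the nucleosomes next to the start site. Domains that run on for many nucleosomes into the gene body are known in many cell types from genes with a role in the identity of the cell. BAF250a, encoded by Arid1a, is the DNA-binding subunit of the BAF (SWI/SNF) complex, which slides and evicts nucleosomes, the substrate of these enzymes.

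The islands of the KO H3K4me3 library held 13512350 ChIP reads over 147.5 Mb, and those of the WT library held 9565481 reads over 101.4 Mb. Library totals are not in the lists, so the depth of KO relative to WT is unknown. Gene names and sequences are not given here, because the positions are in mm9 and no annotation or genome of that build was used; for the same reason the deleted Arid1a exons and markers of the stem cells or feeders were not analysed here.

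Of the 39509 autosomal KO islands, 2691 were 10 kb or wider. All but 14 of these lay over a WT island. In 1626 every WT island below was under 10 kb, and 78 of those touched H3K27me3, 38 of them in both genotypes, 4 in KO alone and 36 in WT alone. The remaining 1548 are the widened domains. They are 8.17% of the 18957 autosomal KO islands that lie over WT islands all under 10 kb and free of H3K27me3. They cover 20.36 Mb, or 13.8% of the KO island length, and hold 2291397 reads, or 16.96% of the KO island reads. The mirror case, an autosomal WT island of 10 kb or more over KO islands all under 10 kb without H3K27me3, occurred 137 times, which is 1 mirror case for 11.3 widened domains. That ratio was 19.04 at a threshold of 12000 bp, 8.54 at 8000 bp, and 3.80 and 2.88 with WT islands alone merged within 600 and 1000 bp. The larger number of reads in the KO islands goes with this count, and its part was not tested.

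**Figure D1:**
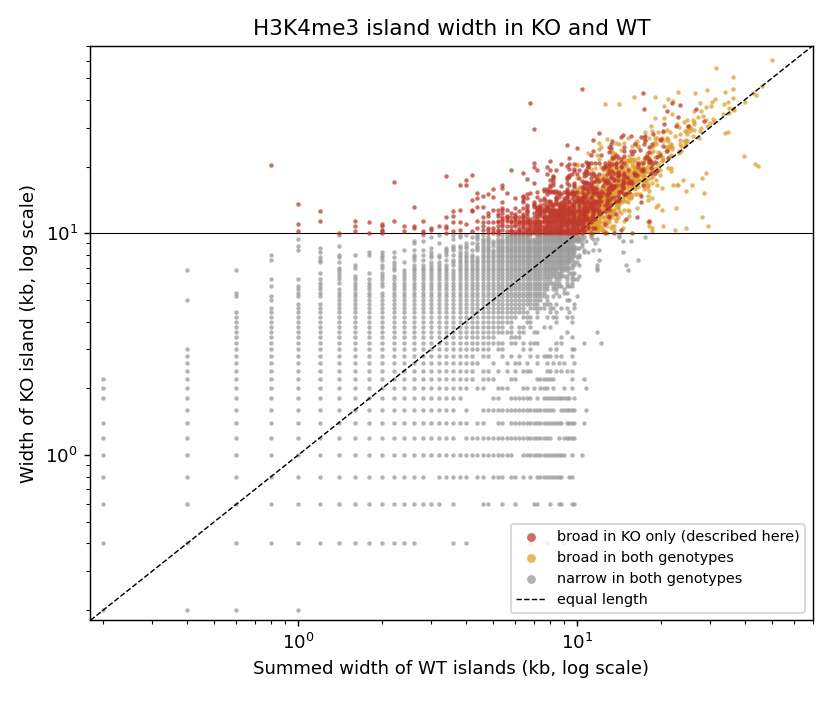
Width of each KO H3K4me3 island against the summed width of the WT islands below it, both in kb on log scales, for autosomal islands without H3K27me3. Points are width pairs in steps of 200 bp, red for the 1548 widened domains, yellow for 980 domains broad in both genotypes and grey for 17409 islands narrow in both, the horizontal line marks 10 kb, and most red points lie a short way above the line of equal length.

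Most widened domains were already large in WT and crossed 10 kb by a few kilobases. The median width was 11800 bp in KO (interquartile range 10600 to 14200), against 9000 bp for the summed WT islands (7600 to 10250), and the widest single WT island had a median of 7600 bp. In KO, 837 domains were under 12 kb, 104 were 20 kb or wider and 13 were 30 kb or wider, up to 44.8 kb. The median added length, KO width minus summed WT width, was 3200 bp (2000 to 5250). The KO island was 1.5 times as long as its WT islands or longer in 543 domains (35.1%, against 25.6% of the 23380 autosomal KO islands with any WT island, a count that the choice by width feeds). It was at least 2 times as long in 186 domains, or 12.02% (10.4 to 13.7%). The share of all islands at that cut was not computed, so this count is not read as a trait of widened domains. In 33 domains the WT islands summed to more than the KO island, and in 433 they summed to 10 kb or more without any one of them reaching it. A WT island ran past an end of the KO island in 397 domains, and in 65 a WT island also lay under a neighbouring KO island, so its reads count there too.

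The domain closest to the medians of fold ratio, width and added length was chr1:182567601-182579400. Its KO island of 11.8 kb held 1158 ChIP and 118 input reads, and its 3 WT islands of 8.8 kb in all held 925 ChIP and 102 input reads. One of these WT islands, 5.4 kb wide, held 836 of the WT reads at 6.44-fold over input. The other two, of 2.2 and 1.2 kb, held 55 and 34 reads at 1.72-fold and 1.74-fold. The KO island ran over all of them, filled 1 kb between them and went 1.2 kb and 0.8 kb beyond the outermost. Fold over input, ChIP reads over input reads corrected for the ratio of library depths, was 7.29 in KO and 5.10 in WT.

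At the boundary of the rule the values ran on without a step. There were 132 widened domains of exactly 10 kb in KO, with medians of 8200 bp of WT islands, a fold over input of 7.64 in KO and 5.29 in WT. The 119 KO islands of 9.8 kb that met the rest of the rule had medians of 8200 bp of WT islands and folds of 7.58 in KO and 4.89 in WT. Just inside, the domains with most reads were chr1:162958801-162968800 with 2244 KO and 1758 WT reads, chr9:72377201-72387200 with 1959 and 1448, and chr11:6519001-6529000 with 1897 and 1387. Just outside were chr7:25666401-25676200 with 1954 KO and 1333 WT reads, chr2:155928201-155938000 with 1924 and 1323, and chr3:116293801-116303600 with 1667 and 1375. On the WT side, 85 widened domains had a widest WT island of 9.8 kb. By KO reads, chr16:38536401-38572800, chr11:29590601-29633600 and chr19:44352201-44380200 led these, with KO islands of 36.4, 43 and 28 kb. They are not typical, as the 279 domains with a widest WT island of 9.2 to 9.8 kb had a median KO width of 12200 bp.

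Widening took 3 forms. In 692 domains (44.7%, 42.2 to 47.2%) a single WT island was extended. In 577 (37.3%, 34.9 to 39.7%) several WT islands that already spanned 10 kb or more from end to end were joined. Most of these were extended as well, with medians of 1600 bp beyond the outermost WT islands and 1000 bp between WT islands. In the other 279 (18.0%, 16.1 to 20.03%) several WT islands spanning under 10 kb were joined and extended. This split follows how WT islands were called, beyond what the intervals cover. The share over a single WT island was 57.3% at an FDR of 1e-05, 60.6% at a fold of 2 or more, and 72.0% and 78.2% with WT islands merged within 600 and 1000 bp. Of the 20356.8 kb of KO length, 68.5% lay over WT islands. The added 6409 kb consisted of 39.8% extension on the left, 39.5% extension on the right and 20.7% length between WT islands. Left and right are by chromosome position, so these near-equal sums say nothing of the direction of transcription.

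Domains over a single WT island were mostly extended on both sides. That held for 494 of the 692 (71.4%, 67.9 to 74.7%), and in 198 the extension was on 1 side alone. Of the 494, the longer side was under 2 times the shorter in 158 and 5 times the shorter or more in 150. Over all widened domains with any extension, the longer side held a median of 85.7% of it (66.7 to 100%). Domains broad in both genotypes over a single WT island were extended on both sides in 234 of 610 cases (38.4%, 34.5 to 42.3%), and islands narrow in both in 5343 of 16142 (33.1%, 32.4 to 33.8%). The rule asks for added length, so the higher share in widened domains was not tested against these.

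Where several WT islands lay below a domain, 1 of them held most of the WT reads in the typical case. In the 856 such domains the WT island with most reads had a median width of 7200 bp, 912 reads and 5.31-fold over input. The 1232 other WT islands had medians of 1800 bp, 62 reads and 2.37-fold, and 36.3 reads per kb against 127.5 in the main ones. The main island held a median of 89.2% of the WT reads (71.1 to 95.2%), 90% or more in 407 domains and below 60% in 122. The gaps that KO filled were short. Of 1232 gaps between WT islands, 602 (48.9%) were 400 bp, the shortest gap in these domains, and 64.4% were 600 bp or less. The lists were called with windows and gaps of 200 bp. At these settings 400 bp was also the shortest distance to a next KO island from widened domains, domains broad in both genotypes and islands narrow in both. Gaps over 2000 bp numbered 151 and gaps over 5000 bp 29, and the longest was 21000 bp.

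The 5 domains with the largest added length had mostly weak or distant WT islands. At chr4:130237801-130282600, the KO island of 44.8 kb held 2134 reads, against 281 reads in 5 WT islands of 1.4 to 2.8 kb, and 26.4 kb of it lay between WT islands. At chr13:44878401-44917000, the KO island of 38.6 kb held 1999 reads, against 211 in 3 WT islands of 1.4, 2.4 and 3 kb. Both domains had KO densities of 47.6 and 51.8 reads per kb, under the median of all widened domains (113.3), and WT densities of 27.02 and 31.0.

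Among the domains with the largest added length, the longest extensions lay mostly to 1 side of a single WT island. At chr1:120521801-120551200, the KO island of 29.4 kb ran 1.4 kb to the left and 21 kb to the right of a 7 kb WT island. It held 2501 KO and 799 WT reads, with a fold over input of 5.403 in KO and 5.54 in WT, a log2 ratio of -0.04 (-0.405 to 0.33). At chr11:107382401-107402800, the KO island of 20.4 kb held 1079 reads and reached 17.8 kb to the left of a WT island of 0.8 kb with 30 reads. Its folds were 3.26 in KO and 1.41 in WT, a log2 ratio of 1.21 with a wide interval (0.23 to 2.20), as the WT island had 12 input reads. At chr11:29590601-29633600, the KO island of 43 kb held 3877 reads and 3 WT islands of 17.2 kb in all held 1754, of which 1503 lay in 1 island of 9.8 kb at the left end. There, 15 kb of the KO island lay between WT islands and 10 kb to the right of the last.

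**Figure D2:**
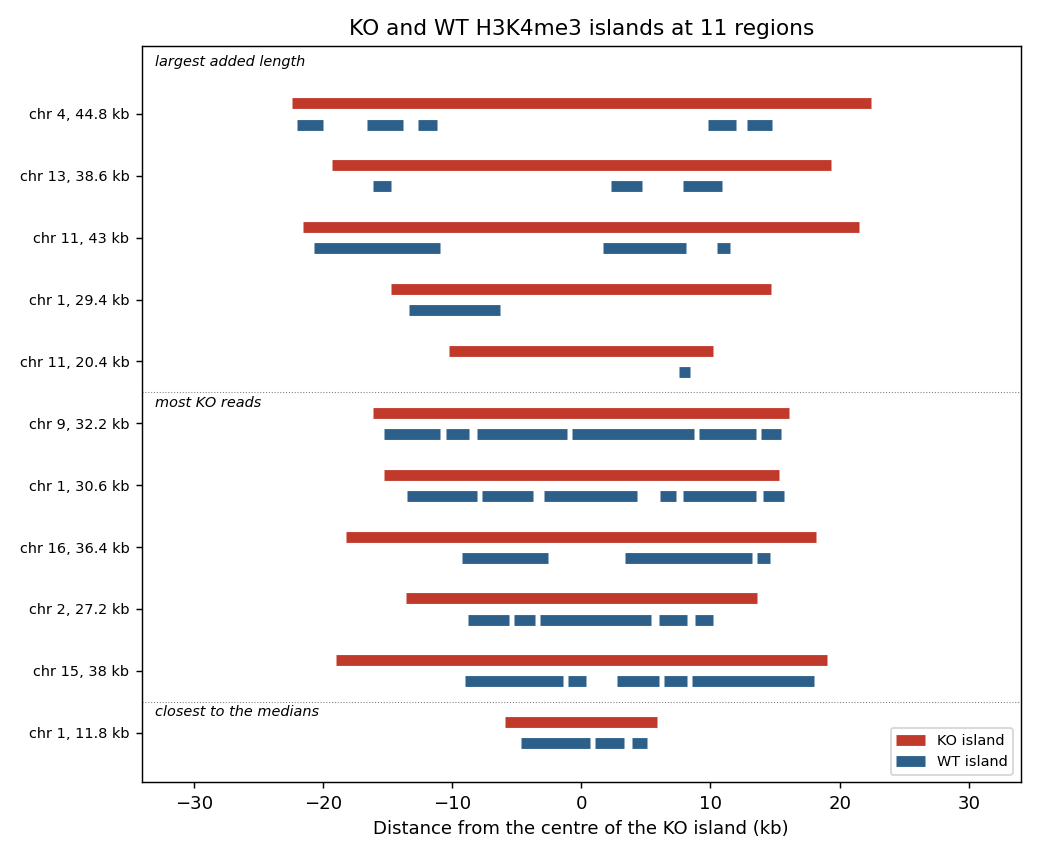
KO islands (red) above the WT islands (blue) below them at 11 widened domains, drawn to scale against the distance in kb from the centre of each KO island. The upper 5 have the largest added length, the next 5 the most KO reads and the last is closest to the medians, and the upper rows show long stretches of KO island without a WT island, whereas the chromosome 9 row is 1 KO island of 32.2 kb over 6 WT islands of 28.6 kb in all.

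The 5 domains with most KO reads were long in both genotypes, with WT signal broken into 3 to 6 islands. At chr9:44124601-44156800, the KO island held 4186 reads over 32.2 kb and 6 WT islands held 3272 reads over 28.6 kb. At chr1:182809401-182840000, the KO island held 4103 reads over 30.6 kb and 6 WT islands held 2101 over 25 kb, with 134.1 reads per kb in KO and 84.0 in WT. Its fold over input was 7.64 in KO and 3.39 in WT, a log2 ratio of 1.17 (0.95 to 1.39). In these 2 domains the added length was only 3.6 and 5.6 kb, and most of the KO island lay over WT islands.

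The other three of the 5 were extended as well as joined. At chr16:38536401-38572800, the KO island of 36.4 kb held 4062 reads and 3 WT islands of 17.4 kb in all held 2039, with folds of 7.38 in KO and 7.59 in WT. At chr2:154701201-154728400, with 3956 KO and 2223 WT reads, the folds were 13.9 in KO and 12.5 in WT, the highest of the 5. At chr15:37975801-38013800, with 3928 KO and 2088 WT reads, the KO island began 10 kb to the left of the first WT island. The log2 fold ratio of the chr16 and chr2 domains was -0.04 (-0.32 to 0.24) and 0.16 (-0.19 to 0.51), with intervals that include 0. KO fold covers the whole KO island and WT fold the called WT islands alone. Enrichment at the same positions was not compared.

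In a small group of 26 domains, the widest WT island was 2 kb or less. Their KO islands had a median width of 10800 bp (lowest 10000, highest 20400) and 562.5 reads (359 to 1079), and their WT islands summed to a median of 1900 bp (800 to 4800) with 71 reads (30 to 144). The fold over input had a median of 3.25 in KO (1.96 to 5.18) and 2.03 in WT (1.20 to 7.87). It was higher in KO in 22 of the 26, and in 89.1% of the 23380 autosomal KO islands with a WT island. The count thus does not set this group apart. Density was 50.3 reads per kb in KO and 34.5 in WT, and input was 11.4 reads per kb in KO and 10.9 in WT. The domains lay on 13 chromosomes, and 18 of them had a single WT island. They are the nearest among the widened domains to broad domains without a WT precursor, and they were weaker in KO than the widened domains as a whole (median fold 7.17).

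The share of islands that became broad rose with the width of the widest WT island. It was 0.332% where that island was 2 kb or less (26 of 7841, 0.217 to 0.486%), 7.69% at 4.2 to 6 kb (248 of 3224), 27.5% at 7.2 to 8 kb (317 of 1152) and 55.9% at 9.2 to 9.8 kb (279 of 499, 51.4 to 60.3%). A wider WT island needs less added length to pass 10 kb, so the order is part of the rule. Within a width group, the islands that did not become broad had median KO widths of 6000 bp at 4.2 to 6 kb and 8300 bp at 9.2 to 9.8 kb. Several WT islands lay below 69.8% of the widened domains and 14.4% of the others at 4.2 to 6 kb, and below 42.7% and 7.27% at 9.2 to 9.8 kb. A longer KO island can overlap more WT islands, so the rule feeds this difference too.

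**Figure D3:**
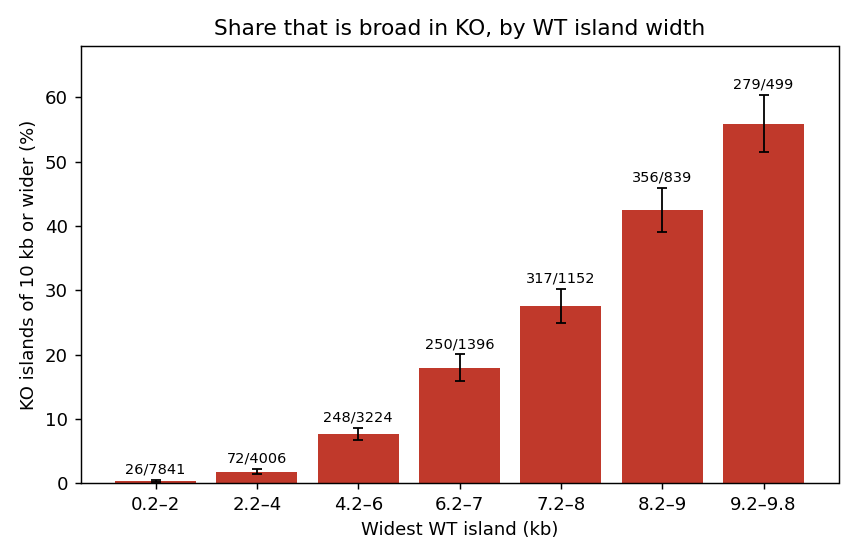
Share, in percent, of autosomal KO H3K4me3 islands of 10 kb or wider among those over WT islands all under 10 kb and without H3K27me3, by the width in kb of the widest WT island. Bars carry exact binomial 95% intervals and the counts, and the share is 0.332% in the narrowest group and 55.9% in the widest.

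Within those width groups, the WT fold of widened domains was close to or below that of the islands that stayed narrow. At 4.2 to 6 kb the median WT fold was 3.71 in widened domains and 4.35 in the others, and at 7.2 to 8 kb it was 5.12 and 5.73. At 9.2 to 9.8 kb it was 5.94 and 5.93. WT fold is pooled over all WT islands below a KO island, and widened domains had several more often. In widened domains the further WT islands had a median of 2.37-fold, against 5.31-fold in the main ones. The part of this in the lower folds was not tested. In reads per kb of called length, widened domains were lower in WT than the others at 2 kb or less (34.5 and 49.3) and higher at 9.2 to 9.8 kb (119.2 and 108.6), so no single order held over the groups.

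Enrichment over input was higher in KO in most widened domains, with a median ratio below that of all islands shared by both genotypes. The median fold was 7.17 in KO (interquartile range 5.46 to 9.13) and 4.95 in WT (3.54 to 6.76), and pooled over all domains it was 7.06 in KO and 4.85 in WT. Per domain, the log2 KO over WT fold had a median of 0.56 (0.32 to 0.78), and 1467 of 1548 domains were higher in KO (94.8%, 93.5 to 95.8%), as were 89.1% of the 23380 autosomal KO islands with a WT island. A fold at least 1.5 times that of WT was reached by 720 widened domains (46.5%), against 55.4% of all those islands, and a fold at least 1.5 times lower by 3 (0.194%), against 4.0%. The median log2 ratio was 0.65 (0.33 to 0.96) over all those islands, 0.63 (0.45 to 0.83) in the 980 domains broad in both genotypes and 0.67 (0.327 to 1.0) in the 17409 islands narrow in both. The same contrast chose the domains, so these shares are not evidence about them. Each fold is divided by the constant of its list, 1.35 in KO and 1.78 in WT. This raises the KO over WT ratio of every island by the same factor, and so feeds the counts of islands higher in KO and of those at 1.5 times. Without the constants, the median log2 KO over WT ratio of widened domains was 0.05 for ChIP reads per kb and -0.11 for input reads per kb. KO fold covers the whole KO island and WT fold the called WT islands alone.

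Read density inside the called islands was nearly equal in both genotypes although the KO islands were longer. KO density covers the whole KO island and WT density the called WT islands alone. Of the KO length, 31.5% lay outside WT islands, and signal at the same positions was not compared. The median density was 113.3 reads per kb in KO (95.2 to 132.3) and 113.0 in WT (91.8 to 132.1), not scaled for depth. The median log2 KO over WT density was 0.05 (-0.12 to 0.21) without scaling. Relative to all autosomal KO islands with a WT island, whose own median was 0.16, it was -0.12 (-0.28 to 0.05), so its sign turned with the scaling. Domains broad in both genotypes had 135.1 reads per kb in KO and 120.1 in WT, an unscaled log2 ratio of 0.17, and islands narrow in both had 76.7 and 67.5, a ratio of 0.19. Unscaled density was higher in KO in 895 widened domains (57.8%), against 68.9% of all islands with a WT island. Density was 1.5 times that of WT or higher in 62 widened domains (4.01%), against 11.7% of all islands with a WT island. Input was 11.8 reads per kb in KO and 12.5 in WT in the widened domains, a median log2 ratio of -0.11 (-0.29 to 0.08), against -0.10 over all those islands.

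**Figure D4:**
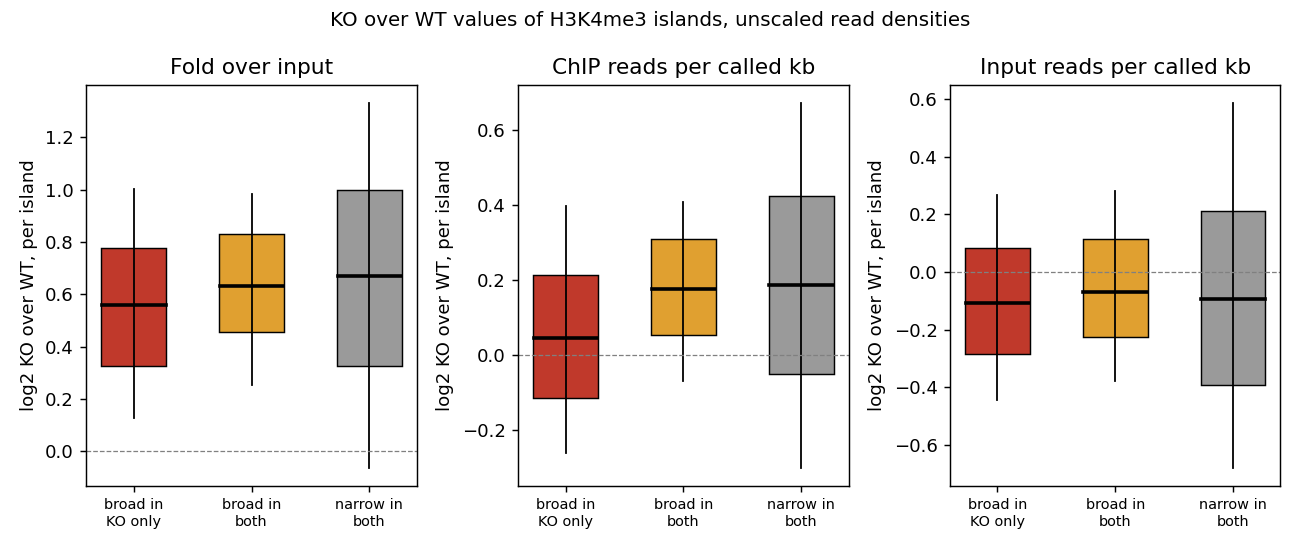
Log2 KO over WT values per H3K4me3 island of fold over input (left), ChIP reads per called kb (middle) and input reads per called kb (right), with densities not scaled for depth. Boxes span the quartiles with the median as a thick line and lines the 10th to 90th percentile over islands, for the 1548 widened domains (red), domains broad in both genotypes (yellow) and islands narrow in both (grey), and the middle panel shows a median of 0.05 in red against 0.17 in yellow.

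The quartile ranges of the fold ratio overlapped between the 3 forms of widening and between the width classes. The medians were highest over several WT islands spanning 10 kb or more and at KO widths of 20 kb or more. As a median, the log2 KO over WT fold was 0.50 (0.27 to 0.73) over single WT islands, 0.62 (0.41 to 0.83) over several WT islands spanning 10 kb or more and 0.53 (0.29 to 0.78) over several spanning less. Density in the same order was 117.2, 113.5 and 105.9 reads per kb in KO, and 121.1, 103.7 and 106.0 in WT. By KO width the median log2 fold ratio was 0.55 (0.31 to 0.76) under 12 kb, 0.57 (0.32 to 0.78) from 12 to under 20 kb and 0.61 (0.42 to 0.87) at 20 kb or more. The fold itself was lower in the wider classes, at 7.62 in KO and 5.31 in WT under 12 kb, and 6.18 in KO and 4.09 in WT at 20 kb or more. Several WT islands lay below 40.3% of the domains under 12 kb and 95.2% of those of 20 kb or more.

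The highest fold ratios went with high WT input. Among the 1525 domains with 100 or more reads in each genotype, the 5 highest had folds of 4.198 to 7.20 in KO and 1.36 to 2.18 in WT, with input of 12.8 to 14.9 reads per kb in KO and 17.6 to 21.6 in WT. The first was chr15:77164601-77175800, with 1082 ChIP and 143 input reads in KO and 261 ChIP and 108 input reads in WT. Its log2 ratio was 2.05 (1.64 to 2.46), and its ChIP density of 96.6 reads per kb in KO, against 52.2 in WT, was also higher. It was followed by chr11:102437401-102447600 at 1.75 (1.38 to 2.11), chr15:98451801-98469800 at 1.72 (1.41 to 2.03), chr14:35170601-35185200 at 1.63 (1.303 to 1.95) and chr8:26640801-26660800 at 1.61 (1.31 to 1.91).

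At the other end, the 5 lowest ratios went with low WT input in 3 of 5 domains. They lay between -0.58 and -0.39, with folds of 4.34 to 9.29 in KO and 6.47 to 13.5 in WT. The lowest was chr15:82971001-82981600, at -0.58 (-1.003 to -0.15), with 1028 ChIP and 176 input reads over 10.6 kb in KO and 771 ChIP and 67 input reads over 4.8 kb in WT. The next were chr3:58379001-58389400 at -0.54, chr3:95235801-95246600 at -0.50 and chr17:17197801-17209200 at -0.42, with 6.29, 6.28 and 6.86 input reads per kb in WT and 10.1, 11.7 and 12.2 in KO. The fifth, chr7:150776601-150788600, at -0.39, had 11.2 input reads per kb in KO and 10.8 in WT. The intervals of the chr3:58379001, chr17 and chr7 domains reach above 0, and those of the other 2 lie below it. Both ends of this ranking of 1525 domains were picked by the ratio itself, which the intervals do not allow for. KO fold also covers the whole KO island and WT fold the called WT islands alone. No domain is thus read as lower in KO. The part of input in either end of the ranking was not tested.

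Widened domains were found on all 19 autosomes in unequal shares. Of the autosomal shared islands without H3K27me3, 7.64% were widened domains, from 11.9% on chromosome 17 (116 of 977, 9.91 to 14.1%) and 10.8% on chromosome 11 (161 of 1490, 9.27 to 12.5%) down to 5.30% on chromosome 6 (57 of 1075, 4.04 to 6.82%) and 5.25% on chromosome 13 (47 of 896, 3.88 to 6.92%). The intervals of chromosomes 17 and 11 lie above those of chromosomes 6 and 13, but these are the ends of a ranking of 19. The intervals treat islands as independent, although 45.9% of widened domains lay within 100 kb of another. A difference between chromosomes was not tested. Chromosomes 17, 11 and 19 also had the highest shares of domains broad in both genotypes, at 6.55%, 6.31% and 6.397%, against 4.84% over all autosomes. The median log2 fold ratio of widened domains was 0.55 on chromosome 17, 0.61 on chromosome 11 and 0.43 on chromosome 6, the lowest. Input in the domains was 12.6 reads per kb in KO and 13.2 in WT on chromosome 17, and 10.8 and 11.03 on chromosome 6.

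**Figure D5:**
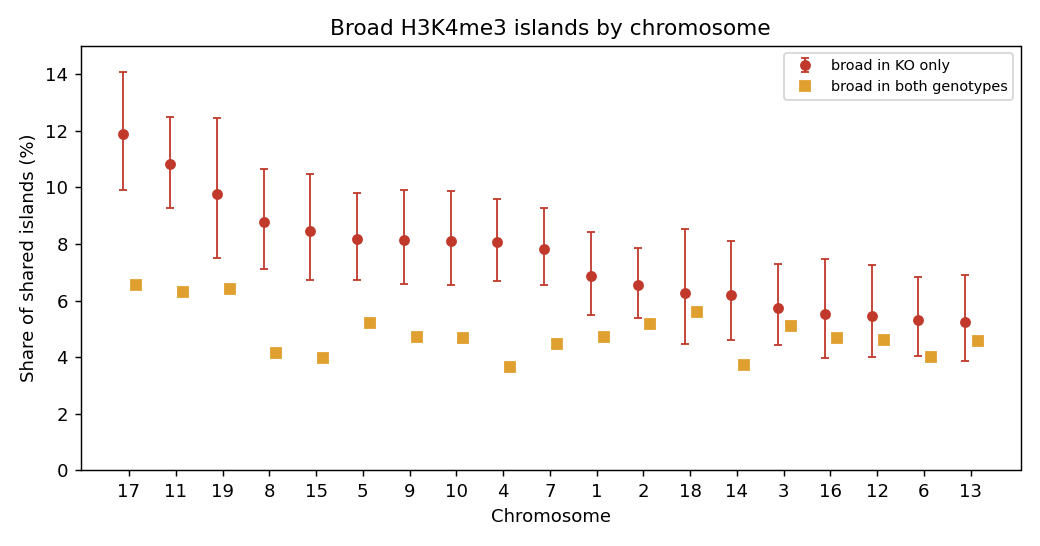
Share, in percent, of the autosomal KO H3K4me3 islands that overlap a WT island and no H3K27me3 island, by chromosome, for widened domains (red, with exact binomial 95% intervals) and domains broad in both genotypes (yellow). Chromosomes are ordered by the red points, which run between 11.9% on chromosome 17 and 5.25% on chromosome 13.

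Widened domains often had further H3K4me3 islands close by. The next KO island lay a median of 1600 bp away (interquartile range 400 to 7200), against 1000 bp for domains broad in both genotypes and 8800 bp for islands narrow in both. A KO island with no WT island lay within 10 kb of 899 widened domains (58.1%, 55.6 to 60.6%), of 54.4% of domains broad in both (51.2 to 57.5%) and of 29.0% of islands narrow in both (28.3 to 29.7%). WT islands with no KO island lay within 10 kb of 7.04%, 10.6% and 5.10% of the 3 sets. Another widened domain lay within 100 kb of 710 of the 1548 (45.9%), and another domain broad in both within 100 kb of 315 of 980 (32.1%). These sets differ in number and in width, which was not allowed for.

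H3K27me3, the mark of Polycomb repressive complex 2, was excluded from the domains by the rule, and few domains had it within 10 kb. The rule also dropped domains that an H3K27me3 island reached from the flank, so it feeds these low shares. An H3K27me3 island lay within 10 kb of 22 widened domains in KO (1.42%, 0.893 to 2.14%) and of 49 in WT (3.17%, 2.35 to 4.16%). For domains broad in both genotypes the shares were 1.53% in KO and 3.67% in WT, with intervals that overlap those of the widened domains. For islands narrow in both they were 3.53% in KO (3.26 to 3.82%) and 5.18% in WT (4.85 to 5.52%). The H3K27me3 lists held 6833 islands in KO and 8067 in WT, over 36.08 Mb in KO and 35.38 Mb in WT, and the part of the calls in these shares was not tested.

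The 137 domains of the mirror case, broad in WT alone, serve as the reverse of the widened ones. Their WT islands had a median width of 10600 bp, and their KO islands summed to 9600 bp. The KO islands held a median of 1273 reads and the WT islands 1153. The median fold was 9.33 in KO and 6.85 in WT, a log2 KO over WT ratio of 0.50, so the fold over input was higher in KO also where the called island was narrower there. The list constants, 1.35 in KO and 1.78 in WT, raise this ratio as they do at every island.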

How the data were processed

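The authors deposited 4 island lists, 1 per ChIP library, with counts of ChIP and input reads, a fold ratio, a p-value and an adjusted p-value per island. The submitters' processing notes name Bowtie, SICER version 1.1 and mm9, and the names of the deposited lists record windows of 200 bp, gaps of 200 bp (H3K4me3) or 600 bp (H3K27me3) and the FDR cut-off, 0.05. How reads were filtered, duplicates included, is not given in the sources used here. Islands cover only places that passed these settings, and a longer gap or deeper library joins islands.

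Starts and ends are 1-based, with 1 added to each. Reads and input were summed over the WT islands of a domain, and folds used the constant of each list that makes the deposited folds (1.35 in KO, 1.78 in WT), with 0.25 for an input of 0. Intervals of fold ratios are normal on the log scale, from 4 counts. Values in brackets after a median are quartiles. Domains named follow ranks by KO reads, added length and fold ratio (5 each), nearness to the medians, and nearness to 10 kb (3 each, ties broken by KO reads). The domains, lists and rules were chosen with earlier results of these data known. Overlaps were checked with bedtools (0 domains differed) and the code was tested on simulated data. MNase and input profiles, sex chromosomes, promoters and gene lists were not analysed here. Python 3.11.15, numpy 2.4.6, pandas 2.3.3, scipy 1.17.1 and matplotlib 3.10.9 were used.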

Additional observations from a re-analysis of the deposited data

How the results depend on the processing

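No paired analysis was possible because each genotype had 1 library per mark. The alternatives below were set together with the rule for naming domains. Of 102 alternative values, 61 stayed within the interval of the reported value or within 1.5 times its count, 40 moved and 1 reversed. The causes were not tested, except where merging lengthens islands or a limit shortens a list. The number of widened domains lay between 1047 (threshold of 12000 bp) and 1981 (8000 bp). The domains themselves changed more, as 837 of the 1548 were no longer in the set at 12000 bp and 712 at 8000 bp. Equal list lengths and removal of islands of high input density left the number at 1548, but they took out none of the widened domains and do not match depth. They say nothing of the stability of this number or of the other values, and all their values are among the 61. The number in the mirror case lay between 55 and 381. Merging WT islands alone within 600 or 1000 bp gave 1175 and 1097 widened domains, and 373 and 451 of the 1548 were no longer among them. Merging both lists within 600 bp gave 1680, or 9.66 times the mirror cases.

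At 8000 bp the medians were 9400 bp in KO and 7200 bp in WT, with 55.2% over 1 WT island, a log2 input ratio of -0.13 and 0% of the width between WT islands. At 12000 bp they were 14600 and 11000 bp, with 33.0% over 1 WT island and log2 ratios of 0.58 for fold and -0.093 for density. An FDR of 1e-05 gave 8600 bp in WT, 57.3% over 1 WT island, a log2 fold ratio of 0.50 and 0% between islands. A fold of 2 gave 8600 bp, 60.6%, 0.48 and 0%, and a log2 density ratio of -0.14. WT islands merged within 600 bp gave 11400 bp in KO and 8600 bp in WT, 72.0% over 1 WT island, a log2 density ratio of -0.14, 83.3% of the extension on the longer side and 0% between islands. Merging within 1000 bp gave 11400 bp, 8400 bp, 78.2%, -0.14, 82.1% and 0%. Merging both lists gave 12000 bp, 8600 bp, 64.8%, a log2 fold ratio of 0.49, density of -0.20, input of -0.14, 83.3% and 0%. The deposited fold of the KO island over that of the WT island with most reads gave a log2 ratio of 0.46. The reversed value was the log2 density ratio without scaling, 0.046 against -0.12. Promoter and gene results were not run, since they need an mm9 annotation. Depth limits the fold of single domains, whose WT input is often under 100 reads.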
